A study of Homo sapiens with 8 samples.

Results

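The enzymes that hydroxylate and crosslink collagen were followed in LX-2 cells, an immortalized human hepatic stellate cell line of wild type genotype, grown on a soft or a stiff matrix. They are 10 genes of the 25369 in the deposited tables, chosen by name: the lysyl oxidases LOX, LOXL1, LOXL2, LOXL3 and LOXL4, the lysyl hydroxylases PLOD1, PLOD2 and PLOD3, and the prolyl 4-hydroxylase alpha subunits P4HA1 and P4HA2. All 10 were among the 14570 genes with enough counts to be tested. The soft matrix was a polyacrylamide gel of 2 kPa and the stiff matrix one of 40 kPa, both coated with fibronectin, and RNA-seq was done after 2 or 4 days with 2 libraries per condition, 8 in all. No condition was treated with a drug or carried an altered gene. The system holds 1 cell line on a flat gel, so neither hepatocytes nor the other cells of a liver were present.

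Collagen chains are modified inside the cell before they fold. Prolyl 4-hydroxylase, made of an alpha subunit and the shared beta subunit P4HB, hydroxylates prolines, which makes the triple helix stable at body temperature, and the lysyl hydroxylases hydroxylate lysines of the helix or, in the case of PLOD2, of the telopeptides at its ends. Outside the cell the lysyl oxidases oxidize lysines and hydroxylysines, and the resulting aldehydes join neighbouring molecules by crosslinks that stiffen the fibre. Prolyl and lysyl hydroxylases need oxygen, iron and ascorbate, and LOX, PLOD2 and P4HA1 are known targets of hypoxia-inducible factors. In the liver, activated stellate cells are the main source of scar collagen.

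In GRCh37, the build of the deposited tables, the lysyl oxidase genes are spread over 5 chromosomes. LOX lies on the minus strand at chr5:121398890-121414108, LOXL1 on the plus strand at chr15:74218330-74244478, LOXL2 on the minus strand at chr8:23154410-23282841, LOXL3 on the minus strand at chr2:74759385-74782817 and LOXL4 on the minus strand at chr10:100007447-100027951. The lysyl hydroxylase genes are PLOD1 on the plus strand at chr1:11994262-12035595, PLOD2 on the minus strand at chr3:145752926-145881512 and PLOD3 on the minus strand at chr7:100849258-100861701. P4HA1 lies at chr10:74766975-74856732 and P4HA2 at chr5:131525840-131631008, both on the minus strand. The strand setting of the counting is not given in the sources used here, so reads of exons shared with a gene on the other strand cannot be told apart. Such exons made up 20.7% of the exonic bases of LOXL3 (shared with HTRA2, with a further gene, DOK1, sharing 4.8%) and 9.2% of LOXL1 (with LOXL1-AS1). They made up 5.4% of P4HA2 (with P4HA2-AS1), 4.2% of LOXL4 (with a noncoding RNA) and 3.0% of LOXL2 (with LOXL2-AS1). For LOX it was 2.5% (with SRFBP1), for PLOD3 1.8% (with ZNHIT1) and for P4HA1 1.5% (with a noncoding RNA). PLOD1 and PLOD2 shared none.

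The libraries held between 19955975 and 27263935 counts, with 23257314 to 27263935 at 2 days and 19955975 to 21939634 at 4 days. The replicates at 4 days on the stiff matrix were the least alike. Their genes differed by a median of 0.467 on the log2 scale, against 0.0942 to 0.207 in the other conditions. Where a call of the 10 genes changed without either of these libraries, the log2 fold change without it is given in most cases. Of 8 stellate cell and myofibroblast markers, 6 were at 1 FPKM (fragments per kilobase of gene, scaled between libraries by size factors) or more in every library, while DES and LRAT were at 0 or close to it. Of the markers of other cells, 5 of 5 endothelial, 5 of 6 hepatocyte, 2 of 4 cholangiocyte and 3 of 5 macrophage and leukocyte genes were under 1 FPKM in every library, among them EPCAM, KRT19 and PTPRC. The others were SERPINA1 (1.18 to 2.77 FPKM), KRT7 (5.47 to 11.1 FPKM), SOX9 (4.76 to 13.9 FPKM), CD14 (1.3 to 3.98 FPKM) and CD68 (45.2 to 63.4 FPKM).

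LOX, PLOD2 and P4HA1 rose together from 2 to 4 days on the soft matrix, as described below, and their promoters are shown for the core of the hypoxia response element, a motif chosen after the changes were seen. The element is read by hypoxia-inducible factors as ACGTG or GCGTG, on either strand, and was searched in the 250 bases before the RefSeq start (GRCh38.p14 sequences), where 9 of the 10 genes had an entry. ACGTG was found in 3 of these 9, in LOX (4 matches), PLOD2 (2 matches) and P4HA1 (1 match), and in 18.6% of the 27305 promoters of the same length. GCGTG was found in PLOD1 (2 matches) and PLOD2 (1 match), and in 31.9% of all promoters. The matches of PLOD1, which fell over time on both matrices, are not printed. Either form was in 4 of the 9, a share close to the 43.1% of all promoters. The matches of LOX, PLOD2 and P4HA1 are printed on the strand of the gene, 5′ to 3′, with the element or its reverse complement in capitals and the number of bases from its first base to the start.
LOX, 185 bases before the start: tccctgtgcaACGTGtctgggggga
LOX, 116 bases before the start: gtccgccttgCACGTttccaatcgc
LOX, 98 bases before the start: caatcgcattACGTGaacaaatagc
LOX, 42 bases before the start: aactttgcaaACGTGccagaaagtt
PLOD2, 213 bases before the start: cagaagcgctGCGTGagcctccaca
PLOD2, 200 bases before the start: tgagcctccaCACGTagccgcaggc
PLOD2, 146 bases before the start: aacagtccagACGTGgggcccagga
P4HA1, 86 bases before the start: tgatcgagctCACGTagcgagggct
By exact match to GRCh37 the stretches of LOX lie at chr5:121414125-121414149, chr5:121414056-121414080, chr5:121414038-121414062 and chr5:121413982-121414006. Those of PLOD2 lie at chr3:145879170-145879194, chr3:145879157-145879181 and chr3:145879103-145879127, and that of P4HA1 at chr10:74856696-74856720. GENCODE places an earlier start in all 3 genes, so that each stretch except that of LOX at 185 bases falls inside the annotated gene. The AP-1 site TGANTCA was in 0 of the 9 promoters and in 6.57% of all, and GGAATG, the site of the TEAD factors that pair with YAP, was in LOXL3 and in 12.0% of all. A match marks letters in the window and says nothing about binding in these cells.

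The 10 genes covered a wide range of levels. LOXL2, which oxidizes lysines in collagen IV and other substrates, had the highest FPKM of the 10 in every condition, between 95.7 and 146 FPKM, and alone made up 65.5% to 77.6% of the summed FPKM of the lysyl oxidases. P4HA2 (41.0 to 72.4 FPKM), PLOD1 (35.9 to 54.6 FPKM), PLOD3 (31.5 to 54.7 FPKM), LOX (19.0 to 50.2 FPKM), PLOD2 (17.0 to 35.2 FPKM), LOXL1 (10.9 to 18.9 FPKM) and P4HA1 (9.48 to 20.7 FPKM) followed, with ranges that overlap in part. LOXL3 (0.435 to 0.703 FPKM) and LOXL4 (0.115 to 0.571 FPKM) were the lowest in every condition, and LOXL4 rested on 10 to 45 counts per library, so that counting error alone is large for it.

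The order of the mean levels was much the same in the 4 conditions, and LOX moved most in it. By mean FPKM, LOX was at rank 5 of 10 on both matrices at 2 days, and at 4 days it was at rank 6 on the soft and rank 2 on the stiff matrix. The FPKM of some neighbours in this order overlapped and they are not ranked apart: PLOD1 with PLOD3 and LOX with PLOD2 and PLOD2 with LOXL1 at 2 days on the soft matrix, PLOD2 with PLOD3 and LOXL3 with LOXL4 at 4 days on the soft matrix, and LOX with P4HA2, P4HA1 with LOXL1 and LOXL3 with LOXL4 at 4 days on the stiff matrix. At 2 days on the stiff matrix no neighbours overlapped.

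**Figure D1:**
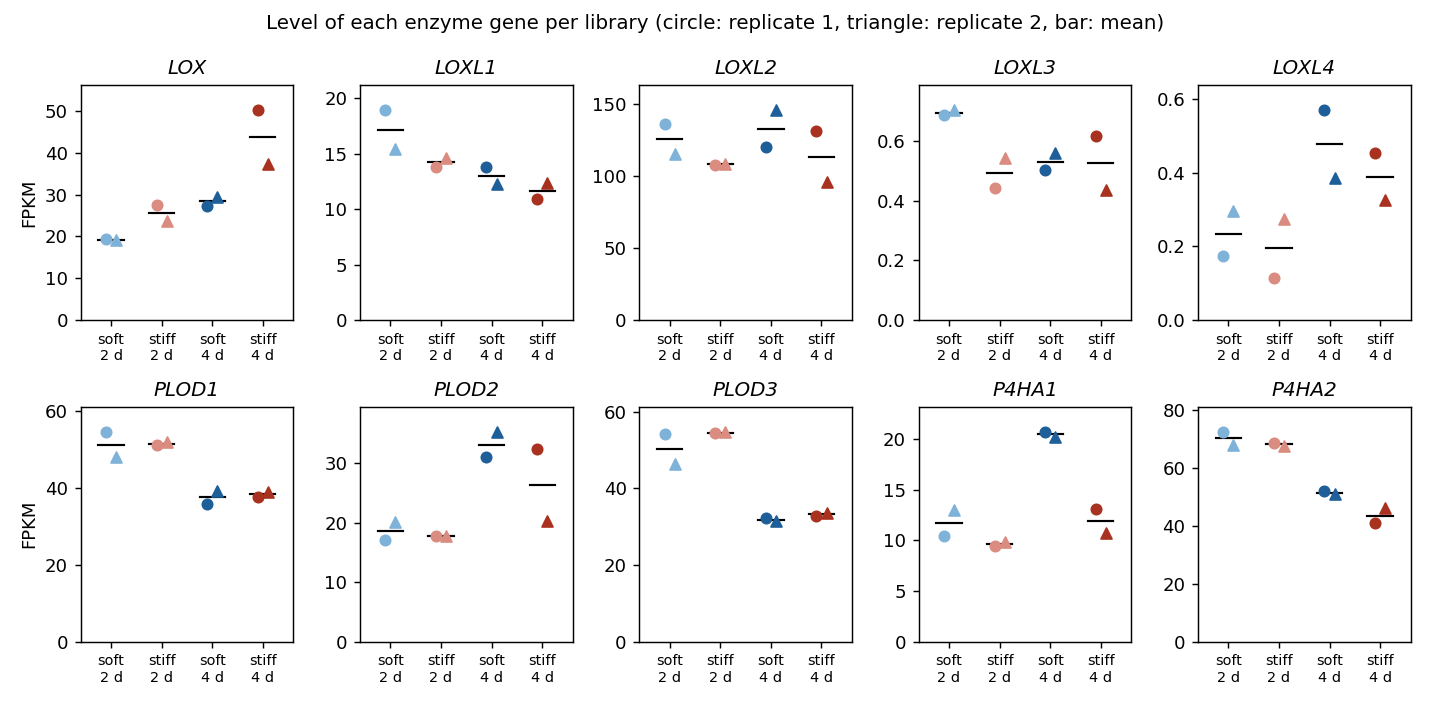
FPKM of each of the 10 genes in the 8 libraries, on linear axes that start at 0 and differ between genes; points are libraries (circle for replicate 1, triangle for replicate 2) and bars are means of the 2 libraries of a condition. PLOD1, PLOD3 and P4HA2 were lower and PLOD2 was higher in all 4 libraries of 4 days than in all 4 of 2 days, and LOX was highest at 4 days on the stiff matrix, at 50.2 and 37.2 FPKM.

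To ask how the enzymes changed as the culture went on, 4 days were compared with 2 days on each matrix by the quasi-likelihood test of edgeR, with p-values adjusted over all genes tested. On the soft matrix 6 of the 10 genes passed an adjusted p-value of 0.05, beside 27.4% of all genes: 3 rose (14.1% of all genes did) and 3 fell (13.3% of all genes did). On the stiff matrix 4 of the 10 passed, beside 27.6% of all genes: 1 rose (14% of all genes) and 3 fell (13.7% of all genes). The 6 genes were LOX, PLOD2 and P4HA1, which rose, and PLOD1, PLOD3 and P4HA2, which fell, and on the stiff matrix LOX again rose and PLOD1, PLOD3 and P4HA2 again fell. Within the lysyl hydroxylases and within the prolyl 4-hydroxylase subunits, genes that rose thus stood beside genes that fell. The FPKM of the 2 days did not overlap in 9 of the 10 genes on the soft matrix, beside 75.2% of all genes, and in 8 of the 10 on the stiff matrix, beside 62.7%.

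LOX, whose product starts the crosslinks of fibrillar collagen and elastin, had 19.4 and 19.0 FPKM at 2 days and 27.3 and 29.4 FPKM at 4 days on the soft matrix. Cells on the stiff matrix had 27.6 and 23.8 FPKM at 2 days and 50.2 and 37.2 FPKM at 4 days. Both libraries of 4 days lay above both of 2 days on either matrix, and the cells kept for 2 days on the stiff matrix were at about the level of those kept for 4 days on the soft one. From 2 to 4 days its level rose by 0.58 on the log2 scale (standard error 0.169, adjusted p = 0.0387) on the soft matrix, and by 0.78 (standard error 0.170, adjusted p = 0.0145) on the stiff one.

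The other lysyl oxidases did not pass the test in either time comparison, although LOXL1 and LOXL4 passed on the soft matrix without either library of 4 days on the stiff one, when 52.9% and 52.7% of all genes did. LOXL1, which acts mainly on elastin, had 18.9 and 15.4 FPKM at 2 days and 13.8 and 12.3 FPKM at 4 days on the soft matrix, and 13.8 and 14.6 FPKM and then 10.9 and 12.3 FPKM on the stiff matrix. All 4 of its libraries of 4 days were below all 4 of 2 days, with log2 fold changes of -0.38 (adjusted p = 0.105) and -0.27 (adjusted p = 0.221). LOXL2 had log2 fold changes of 0.10 on the soft and 0.08 on the stiff matrix, with 95% intervals of -0.34 to 0.54 and -0.36 to 0.52. LOXL4 had the largest fold changes of the 10 genes and the widest intervals, 1.04 (-0.02 to 2.11) on the soft and 1.02 (-0.13 to 2.16) on the stiff matrix. LOXL3 had log2 fold changes of -0.37 and 0.12, with intervals of -0.97 to 0.23 and -0.52 to 0.75.

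In the lysyl hydroxylases, the gene for the telopeptide enzyme moved against the others. PLOD2 had 17.0 and 20.1 FPKM at 2 days and 30.9 and 35.2 FPKM at 4 days on the soft matrix, which is a rise of 0.86 on the log2 scale (standard error 0.218, adjusted p = 0.0244). On the stiff matrix it had 17.7 and 17.7 FPKM at 2 days and 32.3 and 20.3 FPKM at 4 days. There one library of 4 days was at the level of the soft matrix and the other was close to the libraries of 2 days, and the log2 fold change of 0.58 (95% interval 0.08 to 1.09) had an adjusted p of 0.0821. Without replicate 2 of 4 days on the stiff matrix it was 0.87 (adjusted p = 4.7e-05) and without replicate 1 it was 0.21 (adjusted p = 0.208).

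PLOD3, which also carries an activity that adds sugar to hydroxylysine, had 54.1 and 46.5 FPKM at 2 days and 32.2 and 31.5 FPKM at 4 days on the soft matrix, and 54.4 and 54.7 FPKM and then 32.8 and 33.7 FPKM on the stiff matrix. The 4 libraries of 4 days thus lay between 31.5 and 33.7 FPKM, all below those of 2 days. It fell by 0.64 on the log2 scale (standard error 0.128, adjusted p = 0.011) on the soft matrix, and by 0.70 (standard error 0.128, adjusted p = 0.00818) on the stiff one. PLOD1, which hydroxylates lysines of the helix, fell from 54.6 and 48.0 to 35.9 and 39.1 FPKM on the soft matrix, and from 51.0 and 51.9 to 37.7 and 38.9 FPKM in cells on the stiff one. Its groups did not overlap either, with log2 fold changes of -0.43 (adjusted p = 0.0422) and -0.41 (adjusted p = 0.049), the latter just inside the threshold.

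The prolyl 4-hydroxylase alpha subunits also split. P4HA1 rose on the soft matrix from 10.5 and 13.0 FPKM at 2 days to 20.7 and 20.2 FPKM at 4 days, which is a rise of 0.82 on the log2 scale (standard error 0.159, adjusted p = 0.010). On the stiff matrix it had 9.48 and 9.86 FPKM at 2 days and 13.1 and 10.7 FPKM at 4 days. The libraries of 4 days were again the higher ones, but by less, and the log2 fold change of 0.31 (95% interval -0.06 to 0.68, adjusted p = 0.18) did not pass. Without replicate 2 of 4 days on the stiff matrix it was 0.44 (adjusted p = 0.0231) and without replicate 1 it was 0.16 (adjusted p = 0.381). P4HA2 fell from 72.4 and 68.0 to 52.1 and 50.8 FPKM on the soft matrix (log2 fold change -0.43, adjusted p = 0.038) and from 68.6 and 67.7 to 41.0 and 46.0 FPKM on the stiff matrix (log2 fold change -0.63, adjusted p = 0.0106). Every library of 4 days was below every library of 2 days.

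**Figure D2:**
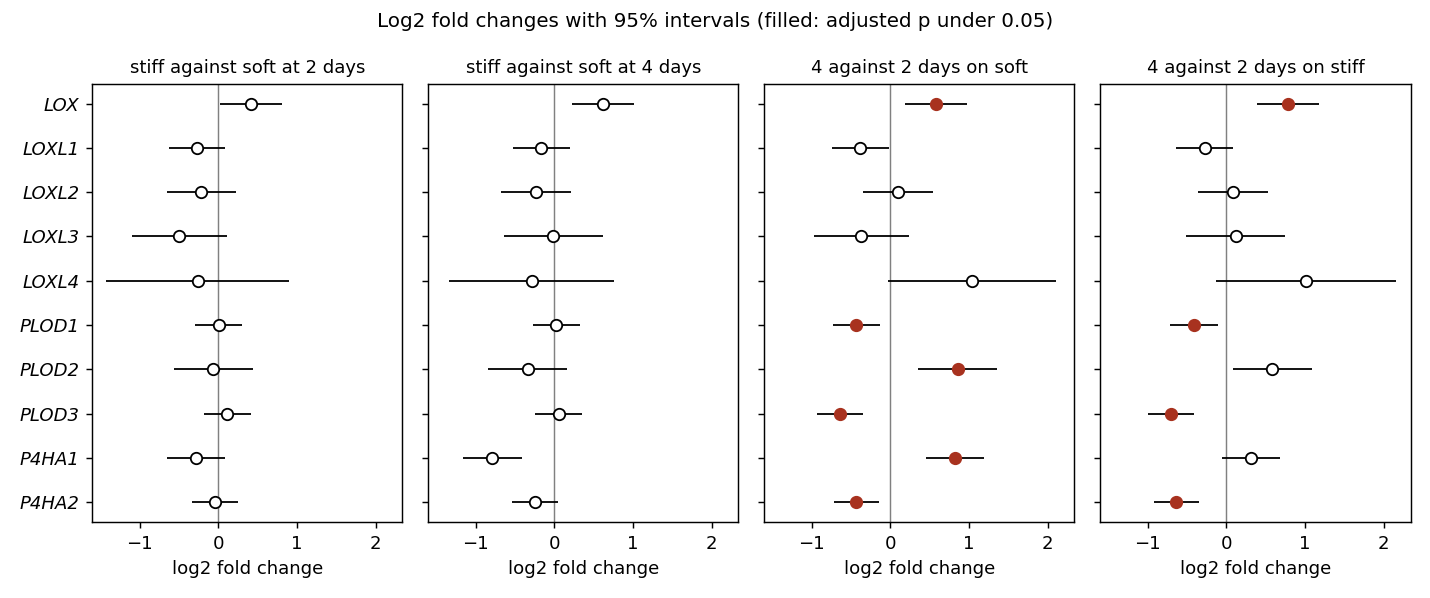
Log2 fold changes of the 10 genes (horizontal axis) in 4 comparisons, from edgeR's fit of all 8 libraries; points are estimates, lines are 95% intervals, and filled points passed an adjusted p of 0.05. No point is filled for stiff against soft at either day, while 6 are filled for 4 against 2 days on the soft matrix and 4 for the stiff one.

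The makeup of each enzyme group shifted as well. PLOD2 made up 13.5% to 17.5% of the summed FPKM of the lysyl hydroxylases in the 4 libraries of 2 days, and at 4 days 31.2% and 33.3% on the soft and 31.4% and 21.9% on the stiff matrix. P4HA1 made up 12.1% to 16.1% of the sum of P4HA1 and P4HA2 at 2 days, 28.4% in both libraries of 4 days on the soft matrix, and 24.2% and 18.9% at 4 days on the stiff matrix. For both shares every library of 4 days was above every library of 2 days. LOX made up 11.1% and 12.6% of the lysyl oxidases at 2 days and 16.8% and 15.6% at 4 days on the soft matrix, against 18.4% and 16.1% and then 25.9% and 25.5% on the stiff matrix. The LOX share was above that of every other library in both libraries of 4 days on the stiff matrix, although these replicates differed in LOX itself.

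**Figure D3:**
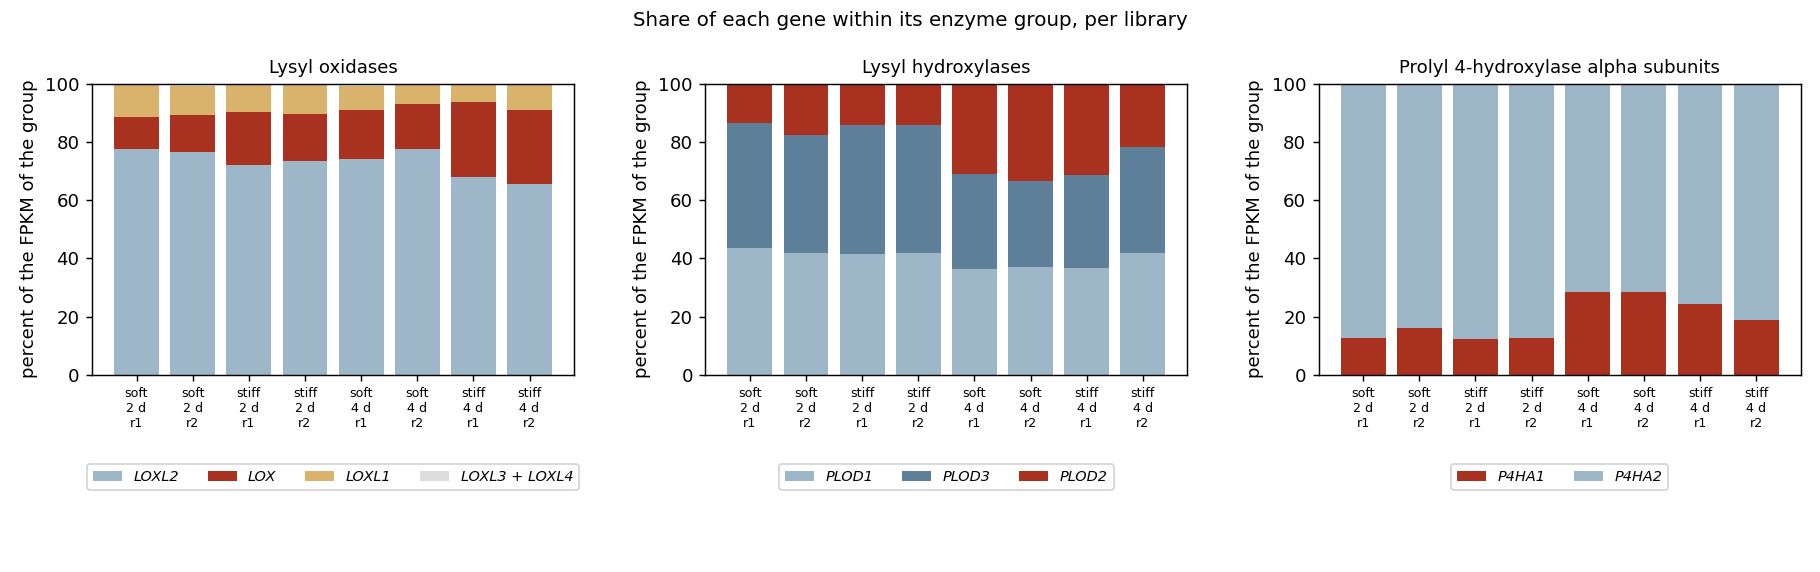
Percent of the summed FPKM of each enzyme group taken by each gene (vertical axis), with 1 bar per library ordered by condition and r1 and r2 for the replicates. The PLOD2 and P4HA1 parts are larger in the 4 bars of 4 days, from 21.9% to 33.3% and from 18.9% to 28.4%, than in the 4 bars of 2 days; LOXL3 and LOXL4 are too low to be seen.

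Other measures moved with the day as well. The summed FPKM of the 8 stellate cell and myofibroblast markers was 1310 to 1410 at 2 days and 2270 to 2640 at 4 days on the soft matrix, and 1620 to 1760 and then 2370 to 3670 on the stiff matrix, most of it from VIM. That of the 4 cholangiocyte markers was 12.5 to 15.1 FPKM at 2 days and 16.1 to 23.3 FPKM at 4 days, from KRT7 and SOX9. That of the 5 macrophage and leukocyte markers, nearly all from CD68, went from 48.2 and 51.1 to 56.0 and 56.5 FPKM on the soft matrix and was higher on the stiff one, at 57.2 and 58.2 and then 61.8 and 66.7 FPKM. RNA was taken from whole cultures, in which fewer cells in one state and less RNA per cell cannot be told apart, and the part of these measures in the changes of the enzymes was not tested. Across all 8 libraries, the FPKM of 4 days and of 2 days did not overlap in 6 of the 10 genes, LOXL1, LOXL4, PLOD1, PLOD2, PLOD3 and P4HA2, and in 46.2% of all genes. The counts of genes that passed depended on single libraries: on the soft matrix 0 of the 10 passed without replicate 1 of 2 days or without either replicate of 4 days, when 2.32% to 8.22% of all genes did, and on the stiff matrix 0 of the 10 passed without either replicate of 2 days, when 3.14% to 5.74% did. In a fit of the 4 libraries of the stiff matrix alone, 0 of the 10 and 0% of all genes passed, with adjusted p of 0.101 for LOX, 0.175 for PLOD1, 0.0765 for PLOD3 and 0.0973 for P4HA2. In all of these fits the direction of the 6 genes named was kept.

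To ask how the enzymes respond to stiffness, the stiff matrix was compared with the soft matrix at each day. At 2 days 0 of the 10 genes passed, beside 0% of all genes in edgeR's test, and at an unadjusted p under 0.05 LOX alone did, beside 2.82% of all genes. DESeq2 called 0 of the 10 at 2 days as well, beside 0.213% of all genes. LOX was at 19.4 and 19.0 FPKM on the soft and 27.6 and 23.8 FPKM on the stiff matrix, so that both stiff libraries were higher, with a log2 fold change of 0.42 (95% interval 0.03 to 0.81, adjusted p = 0.9999). In a fit of the 4 libraries of 2 days alone the same difference of 0.41 had an adjusted p of 0.00162, when 4.67% of all genes passed. The same kind of fit at 4 days gave LOX an adjusted p of 0.9999, when 0% of all genes passed.

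The other 9 genes did not pass at an unadjusted p under 0.05 at 2 days. LOXL1, LOXL2, LOXL3 and P4HA1 were lower in both libraries of the stiff matrix, with log2 fold changes of -0.27, -0.21, -0.50 and -0.28, and every one of these 95% intervals included 0. PLOD3 was higher in both libraries of the stiff matrix, by 0.12 (-0.18 to 0.41). Together with LOX these made 6 of 10 genes whose groups did not overlap, beside 48.4% of all genes. PLOD1 was at 54.6 and 48.0 FPKM on the soft and 51.0 and 51.9 FPKM on the stiff matrix, a log2 fold change of 0.005 with an interval of -0.29 to 0.30, and P4HA2 had -0.04 (-0.33 to 0.24). PLOD2 (-0.07, interval -0.57 to 0.44) and LOXL4 (-0.26, interval -1.42 to 0.90) had wider intervals.

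At 4 days LOX was higher and P4HA1 was lower in both libraries of the stiff matrix, but 0 of the 10 genes passed the test, beside 0.247% of all genes. At an unadjusted p under 0.05 these 2 genes passed, beside 6.93% of all genes, and DESeq2 called 1 of the 10, P4HA1 (adjusted p = 0.00643), beside 1.24%. LOX had 27.3 and 29.4 FPKM on the soft and 50.2 and 37.2 FPKM on the stiff matrix, a difference of 1.54-fold (95% interval of the log2 fold change 0.23 to 1.01, adjusted p = 0.36). P4HA1 had 20.7 and 20.2 FPKM on the soft and 13.1 and 10.7 FPKM on the stiff matrix, and its log2 fold change was -0.79 (95% interval -1.16 to -0.42, adjusted p = 0.159). The lower level of P4HA1 on the stiff matrix and its rise over time on the soft matrix share the same 2 soft libraries of 4 days.

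The calls at 4 days turned on the spread between the stiff replicates. Without replicate 1 of the stiff matrix LOX had a log2 fold change of 0.40 (adjusted p = 0.0251) and P4HA1 of -0.92 (adjusted p = 3.1e-04), and PLOD2 (-0.70, adjusted p = 0.00133) and LOXL2 (-0.47, adjusted p = 0.022) also passed, when 31.1% of all genes did. Without replicate 2 LOX had 0.82 (adjusted p = 6.0e-04) and P4HA1 -0.64 (adjusted p = 0.0203), and 3.63% of all genes passed. Leaving out either library leaves 1 in that condition and takes its spread out of the estimate, so the lone library is assumed to vary like the other conditions. LOX was higher and P4HA1 was lower on the stiff matrix in both of these fits, while the PLOD2 difference was -0.03 without replicate 2.

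The remaining genes did not differ beyond their intervals at 4 days. P4HA2 had 52.1 and 50.8 FPKM on the soft and 41.0 and 46.0 FPKM on the stiff matrix, a log2 fold change of -0.25 (-0.54 to 0.04), and PLOD3 had 0.06 (-0.24 to 0.35). With LOX and P4HA1 these made 4 of 10 genes whose groups did not overlap, beside 25.8% of all genes. PLOD1 had a log2 fold change of 0.03 (-0.27 to 0.33), PLOD2 of -0.34 (-0.84 to 0.16), LOXL1 of -0.17 (-0.53 to 0.20) and LOXL2 of -0.23 (-0.68 to 0.21). LOXL3 at -0.01 (-0.64 to 0.62) and LOXL4 at -0.29 (-1.34 to 0.76) were the least certain. For PLOD1 and PLOD3 the intervals at both days lie between -0.29 and 0.41.

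Whether stiffness acted differently at 4 than at 2 days was tested as an interaction, and 0 of the 10 genes passed, beside 0% of all genes by edgeR. At an unadjusted p under 0.05 also 0 of the 10 passed, beside 1.95% of all genes, and DESeq2 called 0 of the 10 and 0.0206% of all genes. P4HA1 came nearest, at -0.50 on the log2 scale (95% interval -1.03 to 0.02, adjusted p = 0.9997), so that its rise on the soft matrix is not shown to differ from its change on the stiff matrix. LOX had 0.20 (-0.35 to 0.75) and PLOD2 -0.27 (-0.98 to 0.44). Without replicate 1 of 4 days on the stiff matrix PLOD2 (-0.63, adjusted p = 0.0205) and P4HA1 (-0.64, adjusted p = 0.0256) passed, when 20.9% of all genes did.

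The mean of the stiffness effects of both days, a comparison chosen after the data were seen, used all 8 libraries. LOX had a mean log2 fold change of 0.52 (95% interval 0.24 to 0.79, adjusted p = 0.193) and P4HA1 of -0.53 (-0.80 to -0.27, adjusted p = 0.149), with 0.426% of all genes past the threshold in edgeR. DESeq2 called both, beside 1.62% of all genes. Without replicate 1 of 4 days on the stiff matrix the mean was 0.41 for LOX and -0.60 for P4HA1. Without replicate 2 it was 0.62 and -0.47. Calls changed in these fits, which leave 1 library in that condition. LOX was higher and P4HA1 was lower on the stiff matrix at each day and in each pair of libraries of the same day, while across all 8 libraries the stiff and soft groups overlapped in all 10 genes, beside 2.75% of all genes that did not overlap.

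The enzymes were set beside 26 other genes of collagen processing, of which 21 were tested. With stiffness 0 of the 21 passed at either day. The 2 smallest unadjusted p-values were those of P3H2, a prolyl 3-hydroxylase listed under its older symbol LEPREL1 (log2 fold change -0.61), and SERPINH1, the collagen chaperone HSP47 (-0.26), at 2 days, and of COLGALT2, which adds galactose to hydroxylysine (0.74), and BMP1 (-0.53) at 4 days. BMP1 removes the C-propeptide of procollagen and activates LOX. It had 17.4 and 17.4 FPKM on the soft and 13.8 and 10.3 FPKM on the stiff matrix at 4 days (adjusted p = 0.461).

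Over time 4 of the 21 passed on the soft matrix, 2 higher and 2 lower, and 3 on the stiff matrix, 1 higher and 2 lower, both below the 27.4% and 27.6% of all genes. TLL1, a relative of BMP1 with the same activity, rose from 0.357 and 0.389 FPKM to 1.68 and 2.33 FPKM on the soft matrix and from 0.463 and 0.480 FPKM to 3.28 and 2.13 FPKM in cells on the stiff one. Its log2 fold changes of 2.44 (adjusted p = 0.00181) and 2.54 (adjusted p = 0.00178) were the largest of the list. The N-propeptidases ADAMTS2 (-1.12 and -0.99) and ADAMTS14 (-1.54 and -1.63) fell on both matrices. Both were low, at 0.305 to 1.38 and 0.0755 to 0.390 FPKM, and ADAMTS14 had 10 and 7 counts at 4 days on the stiff matrix. The ADAMTS2 call on the stiff matrix (adjusted p = 0.0462) was lost in 4 of 11 settings other than leaving out a library. FKBP14, an isomerase of the endoplasmic reticulum that binds procollagen, rose on the soft matrix (0.63). P4HB, the partner of both alpha subunits, was at 378 to 521 FPKM and did not pass in any comparison, and P4HA3, the remaining alpha subunit, was at 0.0192 to 0.219 FPKM and was too low to be tested.

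The collagens and elastin on which the enzymes act numbered 8, of which 7 were tested; ELN was at 0 to 0.0090 FPKM. COL5A1 fell and COL5A2 rose with time on both matrices (log2 fold changes -0.99 and 0.91 on the soft, -1.40 and 0.99 on the stiff matrix), so chains of the same collagen moved apart. With stiffness 0 of 7 passed at either day. The smallest p-values were those of COL3A1 (-1.06) and COL5A2 (-0.51) at 2 days and COL3A1 (-1.58, adjusted p = 0.25) and COL1A2 (-0.70) at 4 days. COL3A1 was at 3.08 and 2.81 FPKM on the soft and 0.962 and 1.87 FPKM on the stiff matrix at 2 days, and at 5.04 and 7.30 and then 2.70 and 1.45 FPKM at 4 days. All 7 chains had a log2 fold change below 0 at 4 days, with a median of -0.43, against -0.20 for the 10 enzymes and 0.02 for all genes tested. The size of this median rested on replicate 2 of the stiff matrix. Without it 5 of the 7 were below 0, and the median was -0.07 for the chains and -0.03 for the enzymes. Without replicate 1 all 7 were below 0, with a median of -0.86 for the chains and -0.21 for the enzymes.

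Of 20 genes of the hypoxia response, 18 were tested. On the soft matrix 3 rose and 4 fell with time, and on the stiff matrix 1 rose and 6 fell, 7 of 18 in each case beside 27.4% and 27.6% of all genes. VEGFA, the growth factor of blood vessels, fell from 11.8 and 11.6 FPKM at 2 days to 4.12 and 4.34 FPKM at 4 days on the soft matrix, a log2 fold change of -1.45 (adjusted p = 0.00221), and by a log2 fold change of -1.57 on the stiff matrix (adjusted p = 0.00185). BHLHE40 (-0.77 and -1.70), PFKFB4 (-0.76 and -1.06) and NDRG1 (-0.51 and -0.54) also fell on both. The oxygen sensor EGLN1 (0.55), the kinase PDK1 (0.50) and LDHA (0.44) rose on the soft matrix. The PDK1 call (adjusted p = 0.0441) was lost in 6 of 11 settings other than leaving out a library, and that of EGLN1 in 1. KDM3A (-0.73) and PFKFB3 (-0.73) fell and ADM (1.17) rose on the stiff matrix. The KDM3A call (adjusted p = 0.048) was lost in 5 of 11 such settings, that of PFKFB3 in 3 and that of ADM in 1. With stiffness, BHLHE40 passed at 4 days, at 20.2 and 22.1 FPKM on the soft and 10.4 and 8.52 FPKM on the stiff matrix (log2 fold change -1.16, adjusted p = 0.0331). This call was lost in 4 of 11 other settings and in 6 of 8 fits that left out a library, with log2 fold changes of -1.30 to -1.02. At 2 days 0 of the 18 passed, and PFKFB4 (-0.32) and NDRG1 (-0.29) had the smallest p-values.

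From 2 to 4 days the median log2 fold change was -0.13 on the soft and 0.10 on the stiff matrix for the 10 enzymes, -0.14 and 0.07 for collagen processing, 0.47 and 0.07 for the collagens, -0.04 and -0.08 for the hypoxia response, and 0.02 and 0.03 for all genes tested. On the stiff matrix the medians of the enzymes and the collagens were -0.16 and -0.31 without replicate 1 of 4 days and 0.30 and 0.36 without replicate 2. For stiffness at 2 days it was -0.14 for the enzymes, -0.03 for collagen processing, -0.20 for the collagens, -0.06 for the hypoxia response and 0.01 for all genes. At 4 days 3 of the 10 enzymes had a log2 fold change above 0 and 7 below it, as at 2 days, and the medians of collagen processing and the hypoxia response were -0.01 and -0.19.

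**Figure D4:**
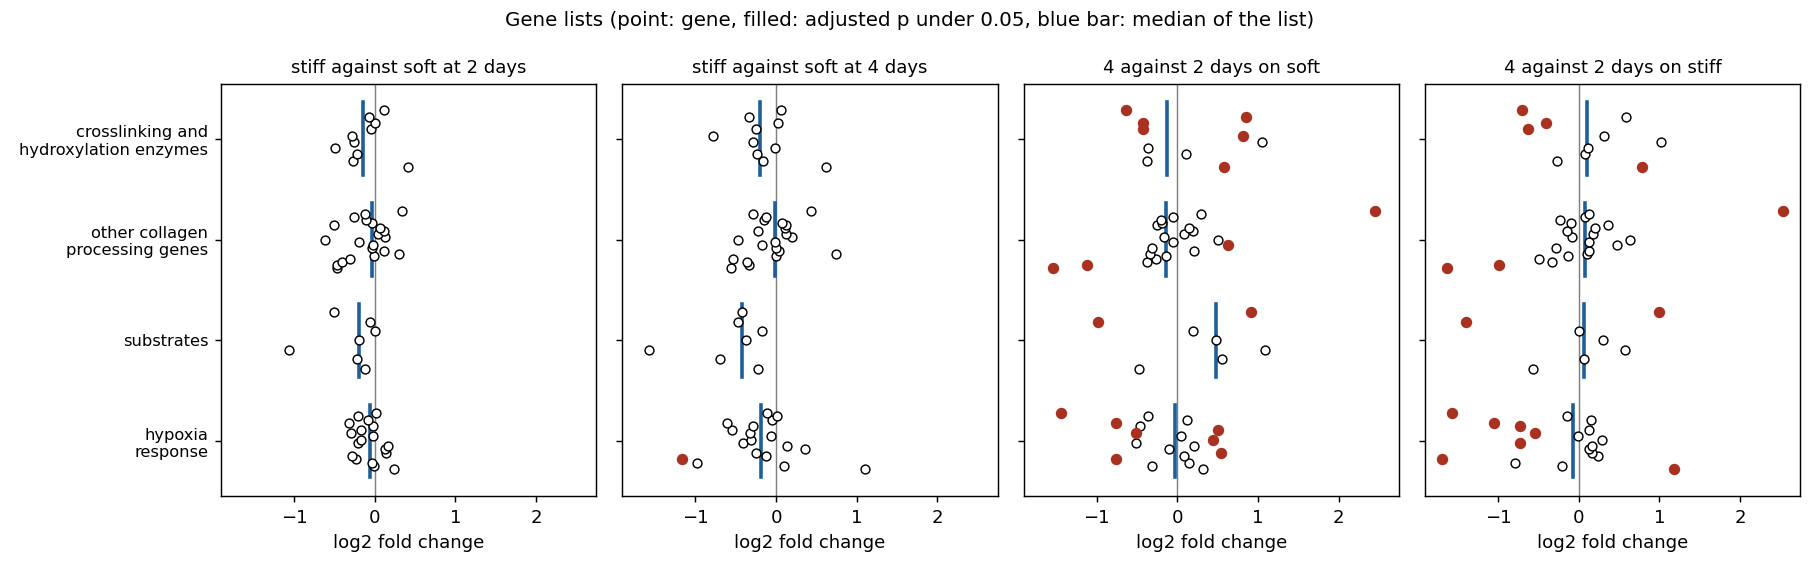
Log2 fold changes (horizontal axis) of the 10 enzymes, 21 other collagen processing genes, 7 collagens and 18 hypoxia response genes that were tested, in 4 comparisons; each point is a gene, filled where the adjusted p was under 0.05, and blue bars are medians. The filled points of stiff against soft are limited to BHLHE40 at 4 days, and over time filled points lie on both sides of 0 in every list.

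Genes whose log2 CPM ran most like that of 3 of the enzymes were named over the 8 libraries, among 9965 genes of sufficient level, as a description, since the points share their library and its depth. For LOX these were FGF5 (Pearson r = 0.9991), L1TD1 (r = 0.9911) and NEDD4L (r = 0.9873). FGF5, a fibroblast growth factor, had log2 fold changes with stiffness of 0.65 at 2 days and 0.89 at 4 days, neither past the threshold. For PLOD2 they were the RNA helicase DDX5 (r = 0.9933), CASK (r = 0.9931) and SREK1 (r = 0.9924). For P4HA1 they were TGIF1 (r = 0.9928), CYBRD1 (r = 0.9846) and PLSCR1 (r = 0.9844). The 3 sets held no gene in common.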

How the data were processed

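RNA-seq of LX-2 cells was analysed in 8 libraries, 2 per condition, grouped by the sample labels. The stiffness was taken from the study, which also states that each condition was done in 2 independent experiments. The authors trimmed reads with Trim Galore, mapped them to hg19 by STAR (version 2.7.1a per the labels) and deposited raw counts per gene from htseq-count, and FPKM of the same genes, which the deposited values show to be scaled by median-of-ratios size factors (checked in 15016 genes). The gene annotation and strand setting are not given in the sources used here. No column was left without a sample.

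Counts were tested in R 4.3.3 with edgeR 4.0.16 (filterByExpr, TMM factors of 0.8704 to 1.08, quasi-likelihood fit of 4 conditions on all 8 libraries, Benjamini-Hochberg adjustment over 14570 genes, called at an adjusted p under 0.05). CPM were scaled by TMM, with a prior count of 2 for log2 CPM. Standard errors and 95% intervals come from the F statistic, and intervals on counts cover no other error. DESeq2 1.42.0, limma 3.58.1 on log2(FPKM + 1) and log2(FPKM + 0.1), other scaling and filters, separate fits, a replicate block and leaving out each library were alternatives. With 19955975 to 27263935 counts per library, 2 libraries per condition limit the precision. On simulated counts of 14570 genes for stiff against soft at 4 days, edgeR recovered 4 of 100 genes changed by 0.6 on the log2 scale. It recovered 100 of 100 changed by 2, and made 9 false calls at 4 days. DESeq2 recovered 14 and 100 of these genes and made 30 false calls at 4 days.

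Genes and lists were chosen with earlier results of these data known. All 10 enzymes were named. From each list and comparison, up to 6 of the largest changes past the threshold were named, or else the 2 smallest p-values. LDHA over time on the soft matrix and NDRG1 on the stiff one were named beyond these 6. They are not among the 24 calls of named list genes followed through other fits. For LOX, PLOD2 and P4HA1 the 3 genes with the highest Pearson r were named, among those with a mean log2 CPM of at least 3. Promoter motifs were chosen after the results were seen. Coordinates are from GENCODE v44lift37 on GRCh37, and promoter sequences from RefSeq. A gene of the marker lists is not reported here and was left out of their counts and sums.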

Additional observations from a re-analysis of the deposited data

How the results depend on the processing

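With 2 libraries per condition no outlying library can be tested for, and the depth limits LOXL3 and LOXL4. The number of the 10 enzymes past the threshold changed with the fit as follows. For stiff against soft at 2 days, 0 became 1 (LOX) in a fit of the libraries compared alone, when 4.67% of all genes passed. At 4 days, 0 became 1 with DESeq2, when 1.24% of all genes passed. Leaving out 1 library also changed this count, with LOX at 0.40 to 0.82 and P4HA1 at -0.92 to -0.64 on the log2 scale. For 4 against 2 days on the soft matrix, 6 became 2 (PLOD3 and P4HA1) with a replicate block, when 18% of all genes passed, and leaving out 1 library gave 0 to 8, with 2 without replicate 2 of 2 days on the soft matrix or either replicate of 2 days on the stiff matrix, and 8 without either replicate of 4 days on the stiff matrix, when 52.9% and 52.7% of all genes passed. In a fit of the libraries of the soft matrix alone 6 became 8, with LOXL1 and LOXL4 added, when 50.7% of all genes passed. Of 11 settings other than leaving out a library, LOX passed in 7 and PLOD2 in 8 on the soft matrix. PLOD1 passed in 7 of 11 on the stiff matrix. On the stiff matrix, 4 became 0 in a fit of the libraries compared alone, when 0% of all genes passed. Leaving out 1 library also changed this count, with log2 fold changes of 0.55 to 0.97 for LOX. They were -0.45 to -0.39 for PLOD1, -0.73 to -0.68 for PLOD3 and -0.73 to -0.55 for P4HA2. The interaction gave 0 with all 8 libraries in every setting. DESeq2 gave 2 for the mean of both days, when 1.62% of all genes passed. On leaving out 1 library, where both counts changed, the mean ranged from 0.41 to 0.62 for LOX and -0.61 to -0.45 for P4HA1. The causes were not tested.

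Same-numbered libraries did not deviate alike. Their deviations correlated at -0.04 between matrices at 2 days, -0.49 at 4 days, and 0.08 and 0.02 over time on the soft and the stiff matrix. The value of -0.49 means that at 4 days opposite-numbered libraries of the soft and the stiff matrix tended to deviate alike. Whether the replicate numbers are crossed there was not tested. The replicate block changed no other count by more than 1.5 times. On the stiff matrix over time it gave 3 in place of 4, when 17.5% of all genes passed. Because of the value of -0.49, a block with pairs crossed at 4 days was added after the data were seen. It gave 0 enzymes for stiffness at 2 days (0% of all genes) and 0 at 4 days (0.426%). Over time it gave 6 on the soft and 4 on the stiff matrix (31.2% of all genes on either), and 0 in the interaction (0%).

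Most directions that turned belonged to differences of at most 0.12 in size in the fit of all 8 libraries. Larger differences of that fit turned only on leaving out 1 library. These were LOXL4 for stiffness at 2 days (-0.26) and at 4 days (-0.29), and PLOD2 (-0.27) and LOX (0.20) in the interaction. Without scaling factors PLOD1 was -0.060 at 2 days, -0.10 at 4 days and -0.036 in the interaction, PLOD3 was -0.064 for stiffness at 4 days, and over time on the stiff matrix LOXL2 was -0.036 and LOXL3 -0.0039. PLOD1 at 2 days was also -0.0066 with at least 10 counts in every library and -0.0043 in the fit of the libraries compared. On leaving out 1 library the log2 fold change at 2 days ranged from -0.089 to 0.0062 for P4HA2, -1.02 to 0.23 for LOXL4, -0.086 to 0.10 for PLOD1 and -0.18 to 0.057 for PLOD2. At 4 days it ranged from -0.54 to 0.013 for LOXL4, -0.034 to 0.10 for PLOD1 and -0.28 to 0.22 for LOXL3. Over time it ranged from -0.059 to 0.22 for LOXL2 on the soft matrix, and with the stiff one from -0.16 to 0.33 for LOXL3 and -0.16 to 0.28 for LOXL2. In the interaction it ranged from -0.054 to 0.25 for LOXL1, -0.52 to 0.73 for LOXL4, -0.079 to 0.11 for PLOD1, -0.25 to 0.21 for LOXL2, -0.18 to 0.047 for PLOD3, -0.012 to 0.42 for LOX and -0.63 to 0.041 for PLOD2. Of the 24 calls of named list genes, 0 turned, 6 held in every setting other than leaving out a library, and 5 held without any one library.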
